A study of Oncorhynchus mykiss with 6 samples.

Results

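Liver small RNA was sequenced in 3 socially subordinate (SS) and 3 socially dominant (SD) juvenile rainbow trout, and the sequences described here are those named after miR-462, miR-731, miR-722, miR-725 and the other fish miRNAs numbered between miR-722 and miR-740. A sequence belongs to this set when its name in the authors' table holds miR-462 or any of miR-722 to miR-740. This gave 49 of the 1389 sequences in the table, under 16 of the 20 numbers that the rule allows, and miR-732, miR-738, miR-739 and miR-740 had no sequence. Both groups were wild type fish of the strain labelled Walbaum, held in pairs for 4 d, and each library came from 1 fish. SS fish were the losing and SD fish the winning members of such pairs. According to the study, the dominant fish took most of the food and the subordinate fish had more cortisol, so social status, feeding and cortisol cannot be told apart in this comparison. Fish held alone were not analysed here.

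A microRNA (miRNA) is a short RNA that guides an Argonaute protein to messenger RNAs, mainly by pairing through its seed, and thereby lowers their translation and stability. It is cut from a hairpin, whose left side gives the 5p arm and whose right side gives the 3p arm. miR-462 and miR-731 lie beside each other in fish genomes and are made from 1 transcript. They are the teleost counterparts of mammalian miR-191 and miR-425, which are not among the names in the table, and they are known as miRNAs induced by interferon and virus infection in trout and by hypoxia in zebrafish. In zebrafish, raised miR-722 in neutrophils lowers rac2, a small GTPase of the cytoskeleton, and slows the movement of these cells. The remaining numbers denote the order in which fish miRNAs were catalogued, not a family, and no role is given for them here.

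The sequences on which the results turn are printed below 5′ to 3′, with the seed (bases 2 to 8) in capitals, since the seed decides which transcripts a miRNA can recognise. A name opens with the species of the catalogued miRNA (dre for zebrafish, ssa for Atlantic salmon), and L or R with a sign gives bases gained or lost at the left or right end.
ssa-miR-462a-5p: tAACGGAAcccataatgcagctg
ssa-miR-462b-5p_R-1: tAACGGAAcccataaagcagct
ssa-miR-462a-3p: cCTGGATGtgggttccgtct
ssa-miR-731-5p: aATGACACgttttctcccggatt
dre-miR-731_R+2_1ss23CT: aATGACACgttttctcccggattgct
ssa-miR-731-3p: cACCGGGAatttcgtgtcagca
dre-miR-722_L-2: tTTTGCAGaaacgtttcagatt
ssa-miR-722-5p_L-1R+1: tTTGAAACgttttagccaaaa
ssa-miR-725-3p: tTCAGTCAttgtttctggtagt
ssa-miR-725-5p: aGCTAGAAaccttgcctgagat
dre-miR-724_L-1: tAAAGGGAatttgcgactgtt
dre-miR-737-5p_2ss4TA15TA: gTTATTTTaggtttagatttt

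The 5p forms of miR-462a and miR-462b share their seed and differ by 1 base over the 22 bases compared, T16A, with positions counted from 1 at the 5′ end and the base of miR-462a first. The miR-731-5p form named R+2 has the letters of ssa-miR-731-5p and 3 more at the 3′ end. miR-462 and miR-731 have different seeds although they come from 1 cluster. The dominant miR-722 form starts 2 bases later than the catalogued zebrafish miRNA. A rare longer form with 2 reads shows those bases (dre-miR-722_L+4R-2: gTGGTTTTttgcagaaacgtttcaga), and read from the catalogued start the seed would be TTTTTGC, against TTTGCAG in the dominant form. Its name gives no arm, and it was taken as the 3p arm because the other arm is named 5p. By RNAduplex, 18 base pairs could form between these letters and those of the miR-722-5p form, 16 each in the pairs of arms of miR-462a and miR-725, and 13 in that of miR-731. The energy was weakest for miR-722, at -16.2 kcal/mol, against -24.2 for miR-462a, -18.6 for miR-725 and -22.3 for miR-731. Such pairing cannot tell which arm is 5p and which is 3p. The rare forms ccr-mir-722-p3_1ss1CT (7 reads) and ccr-mir-722-p5_1ss1CT (3 reads) share 1 seed, unlike that of dre-miR-722_L-2, though their names give opposite arms. They did not decide the arm of dre-miR-722_L-2, and each was summed under the arm in its name. Across the 49 sequences there were 38 seeds. None of the 9 that were tested shared its seed with a sequence outside the set, and 5 of the 49 did.

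Reads of the set came to 85579, or 0.751% of all reads in the table, and were held by few forms. miR-722 held 75.0% of them, miR-462 19.6% and miR-731 4.49%, while miR-725 held 0.36%. dre-miR-722_L-2 was the 23rd most abundant of the 1389 sequences and ssa-miR-462a-5p the 47th. A total of 18 of the 49 sequences had at least 10 reads over the 6 libraries, and the other 31 shared 69 reads. The set took 0.875%, 0.743% and 0.915% of the table's reads in SS fish 4A, 6A and 1B, against 0.806%, 0.720% and 0.587% in SD fish 4B, 6B and 21A. The 2 groups overlapped. The means were 0.844% ± 0.0904 in the SS and 0.704% ± 0.110 in the SD group (SD, n = 3 each), a difference that did not pass a two-sided exact permutation test (p = 0.2, where 3 fish against 3 allow no p below 0.1).

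Library depth set how finely these miRNAs could be measured. The table held 1183289 to 3382970 reads per library, and 3 reads corresponded to 1.69 to 4.32 normalized reads. A mean of 3 reads is about the one-sided 95% Poisson upper limit for a count of 0. A normalized read is the authors' count divided by a size parameter of the library, and it is the unit of all levels below. These limits and the interval given for a single count cover counting error only. For the comparison, sequences with low counts were removed, and the remaining 338 entered edgeR's quasi-likelihood test of SS against SD, with p-values adjusted over all 338. The test called 2 of them, which is 0.592%, both higher in SS fish and neither in the set, but 0 when SS fish 1B, SD fish 4B or SD fish 21A was left out. In simulated libraries it called 14.1% of tested sequences changed 2-fold, 75.8% of those changed 4-fold and 94.2% of those changed 8-fold. Changed sequences that the filter removed were not counted in these rates. Many sequences were changed at once in those libraries, which eases the adjusted threshold, so the rates may be lower where few change. The filter left 9 sequences of the set, which hold 99.5% of its reads.

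None of the 9 tested sequences passed the adjusted threshold by edgeR, DESeq2 or limma. At an unadjusted p under 0.05 in edgeR there were 2, dre-miR-722_L-2 and ssa-miR-725-3p, against 37 of the 338, or 10.9%. DESeq2 called 7 of the 338 sequences, or 2.07%. In every SS fish these same 2 sequences were above every SD fish, against 36 of all tested, or 10.7%. None of the 9 was lower in every SS fish, against 26 of all tested, or 7.69%. The fitted differences were above 0 for 3 of the 9 and below 0 for 6, with a median log2 fold change of -0.17, against -0.02 over all 338 sequences. When the forms of each arm were summed, 9 arms of the set were tested among 209, none was called by edgeR, DESeq2 or limma, and 2 had an unadjusted p under 0.05 in edgeR, against 19 of the 209, or 9.09%. That fit called 2 of the 209 arms, or 0.957%. When all forms and both arms of a miRNA number were summed, edgeR called none of 149 miRNAs (0%), of which 11 (7.38%) had an unadjusted p under 0.05, DESeq2 called 3 and limma none. Of the 6 numbers of the set in that fit, none was called by these tools, and miR-722 and miR-725 had an unadjusted p under 0.05 in edgeR.

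**Figure D1:**
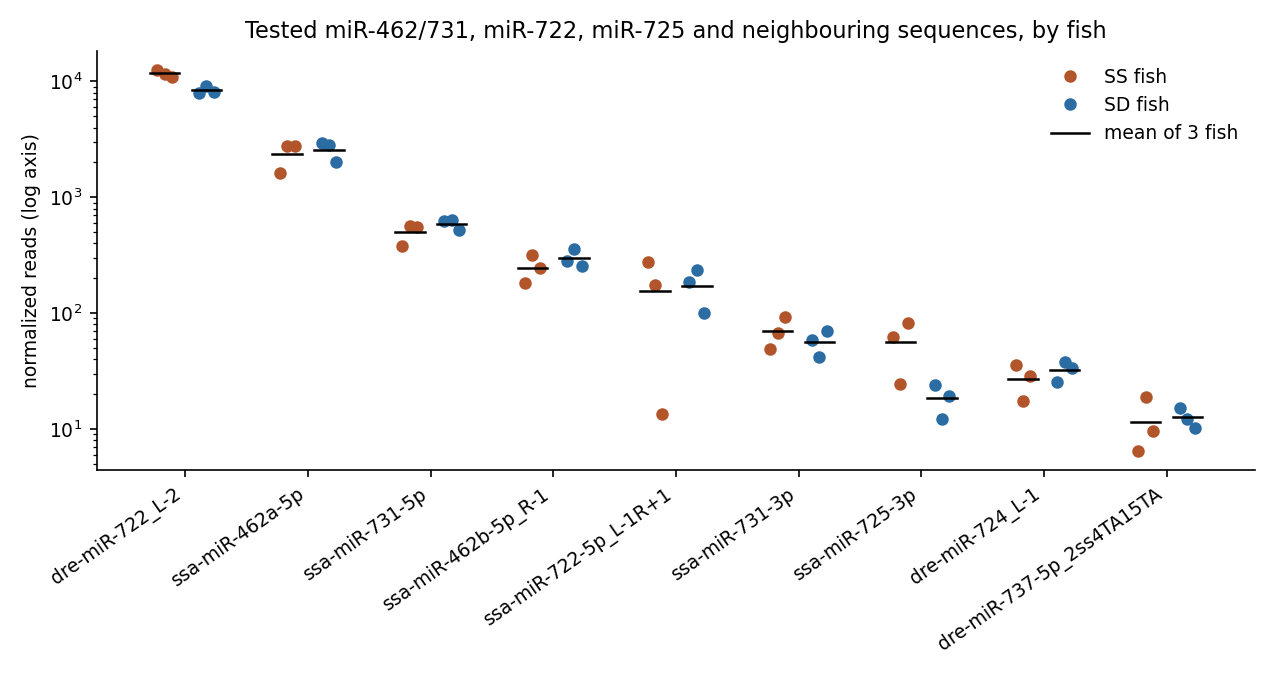
Normalized reads (log axis) of the 9 tested sequences of the set, with SS fish on the left and SD fish on the right of each pair, 1 point per fish and a line at the mean of 3 fish. The groups are apart for dre-miR-722_L-2 and ssa-miR-725-3p, and 1 SS fish lies far below the others for ssa-miR-722-5p_L-1R+1.

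miR-722-3p was the most abundant member and the most even one among fish of a group. dre-miR-722_L-2 stood at 12618, 11714 and 10876 normalized reads in SS fish 4A, 6A and 1B, against 7937, 9105 and 8114 in SD fish 4B, 6B and 21A. The lowest SS fish was above the highest SD fish, and the means were 11736 ± 871 in the SS and 8385 ± 630 in the SD group (SD, n = 3 each), a ratio of 1.40. Its coefficient of variation was 7.42% in SS and 7.51% in SD fish, where the medians over all tested sequences were 28.3% and 26.4%. The log2 fold change of SS over SD was 0.46 (95% interval 0.07 to 0.86), with an adjusted p of 0.403 in edgeR. With all 3p forms summed it was 0.48 (adjusted p = 0.370 in edgeR), and with both arms of miR-722 summed 0.51 (adjusted p = 0.293 in edgeR). The study had compared SS and SD fish on these same libraries, so the direction of miR-722 here is no independent evidence. The study also reported more miR-722 in SS than in SD fish by RT-PCR, which was not analysed here.

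The other arm of miR-722 was low in 1 fish. ssa-miR-722-5p_L-1R+1 stood at 275.0, 174.3 and 13.3 normalized reads in SS fish 4A, 6A and 1B, against 185.5, 233.5 and 99.8 in SD fish 4B, 6B and 21A. The value of SS fish 1B rests on 14 reads (exact Poisson 95% interval 7.65 to 23.5). On the scale of log2 CPM with a prior count of 1, it lay 2.81 below the next lowest library, the third largest such gap among the 338 tested sequences, whose median gap was 0.26. The same fish had 11439 reads of dre-miR-722_L-2. Per read of the 5p arm there were therefore 817 reads of the 3p arm in SS fish 1B, but 45.9 and 67.2 in SS fish 4A and 6A, and 42.8, 38.8 and 80.4 in SD fish 4B, 6B and 21A. The fitted log2 fold change of the 5p form was -0.19 (95% interval -2.15 to 1.77, adjusted p = 0.926 in edgeR), and it was 0.36 without SS fish 1B.

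The level of miR-722-3p over the 6 libraries was nearest to those of ssa-miR-93a-5p, ola-mir-223-p5 and ssa-miR-27d-5p. Nearness was measured as the root mean square difference of log2 CPM over the 6 libraries after each sequence was centred on its own mean, and it was 0.13, 0.13 and 0.15 for these, against a median of 0.49 over 337 sequences. miR-223 is a miRNA of myeloid leukocytes. All forms of miR-223 together stood at 105, 54.7 and 79.4 normalized reads in SS fish 4A, 6A and 1B, against 69.3, 49.5 and 51.3 in SD fish 4B, 6B and 21A, which overlap. The whole list of leukocyte miRNAs (miR-142, miR-150, miR-155 and miR-223) summed to between 1833 and 2173 normalized reads in SS fish and between 1585 and 2517 in SD fish, and none of its 7 tested sequences passed the threshold in edgeR or had an unadjusted p under 0.05. In whole liver, more cells of a type and more of a miRNA per cell cannot be told apart. The part of leukocytes in the level of miR-722 was not tested.

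**Figure D2:**
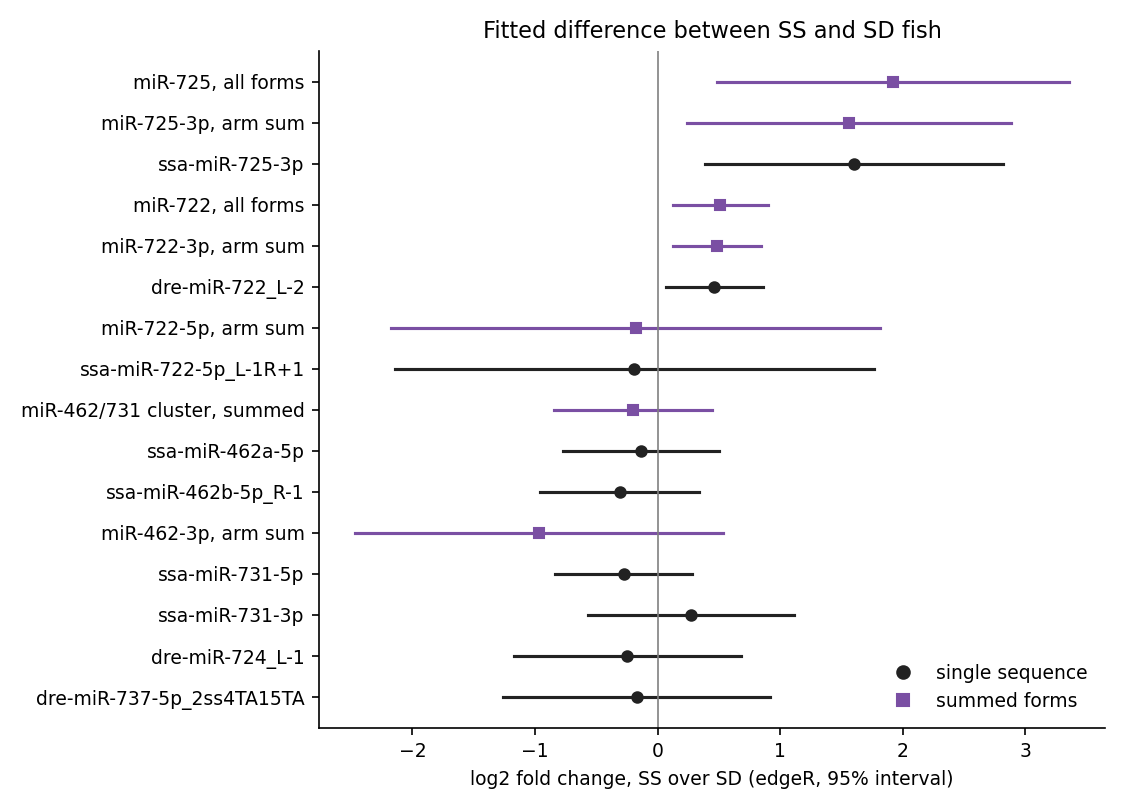
Fitted log2 fold change of SS over SD fish (x axis) for single sequences (circles) and summed forms (squares) of the set, with 95% intervals from edgeR. The intervals of miR-725, of miR-722-3p and of all forms of miR-722 summed lie above 0 before adjustment, and the others span 0. That of dre-miR-722_L-2 runs from 0.07 to 0.86.

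miR-725 showed the largest fitted difference of the set, on few reads. ssa-miR-725-3p stood at 61.7, 24.5 and 82.7 normalized reads in SS fish 4A, 6A and 1B, against 24.1, 12.2 and 19.2 in SD fish 4B, 6B and 21A. The groups did not overlap, but SS fish 6A, with 17 reads, was only just above SD fish 4B, with 19 reads. The means were 56.3 ± 29.5 in the SS and 18.5 ± 5.99 in the SD group (SD, n = 3 each), a ratio of 3.04, and the SD of the SS fish was 52.4% of their mean. The log2 fold change was 1.60 (95% interval 0.39 to 2.82), the 8th largest of 338, with an adjusted p of 0.345 in edgeR. Adding the rare longer 3p form, which differs by 1 more base at the 3′ end, gave 1.57 (adjusted p = 0.422 in edgeR) and made SS fish 6A (24.5 normalized reads) lower than SD fish 4B (25.4).

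The 5p arm of miR-725 was below the filter, and its reads were mostly in SS fish. ssa-miR-725-5p had 13, 3 and 41 reads in SS fish 4A, 6A and 1B, against 0, 2 and 2 in SD fish 4B, 6B and 21A, or 10.5, 4.32 and 39.0 normalized reads against 0, 2.45 and 1.13. Every SS fish was above every SD fish, but SS fish 6A and all SD fish were at or below 3 reads. With no filter, where edgeR called 18 of 1283 sequences or 1.4%, it was the single member called, at a log2 fold change of 3.83 and an adjusted p of 4.69e-05. On the same unfiltered table the adjusted p was 0.0843 in DESeq2 and 0.185 in limma with 1 normalized read added, and 0.149 in edgeR without SS fish 1B, which holds most of the reads. It was called in 5 of 10 alternatives on that table, each an edgeR fit without a single fish other than SS fish 1B. With both arms summed, miR-725 stood at 73.02, 28.8 and 122.7 normalized reads in SS fish 4A, 6A and 1B, against 25.4, 15.9 and 20.3 in SD fish 4B, 6B and 21A. All SS fish were higher, and the log2 fold change was 1.92 (95% interval 0.49 to 3.36, adjusted p = 0.293 in edgeR). That adjusted p was 0.0359 in edgeR without SS fish 6A, with a log2 fold change of 2.32.

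The pattern of ssa-miR-725-3p over the libraries was nearest to those of some forms of miR-29. The values were 0.32 for dre-miR-29b, 0.34 for ssa-miR-29c-5p and 0.36 for ssa-miR-29b-3p, against a median of 1.04 over 337 sequences. These are root mean square differences of log2 CPM, and all libraries share their depth and size factor between the sequences compared. No sequence of miR-462, miR-731 or miR-722 was among its 8 nearest.

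miR-462 and miR-731 had overlapping levels in SS and SD fish, and both were lowest in the same SS fish. Summed as 1 cluster they stood at 2263, 3700 and 3695 normalized reads in SS fish 4A, 6A and 1B, against 3914, 3878 and 2887 in SD fish 4B, 6B and 21A. The groups overlapped, with SS fish 4A the lowest and SD fish 21A the next lowest. The means were 3220 ± 828 in the SS and 3560 ± 583 in the SD group (SD, n = 3 each). The log2 fold change was -0.20 (95% interval -0.85 to 0.44, adjusted p = 0.772 in edgeR), so differences of up to 0.85 log2 units lower or 0.44 higher in SS fish remained within the interval. Without SS fish 4A it was 0.00.

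**Figure D3:**
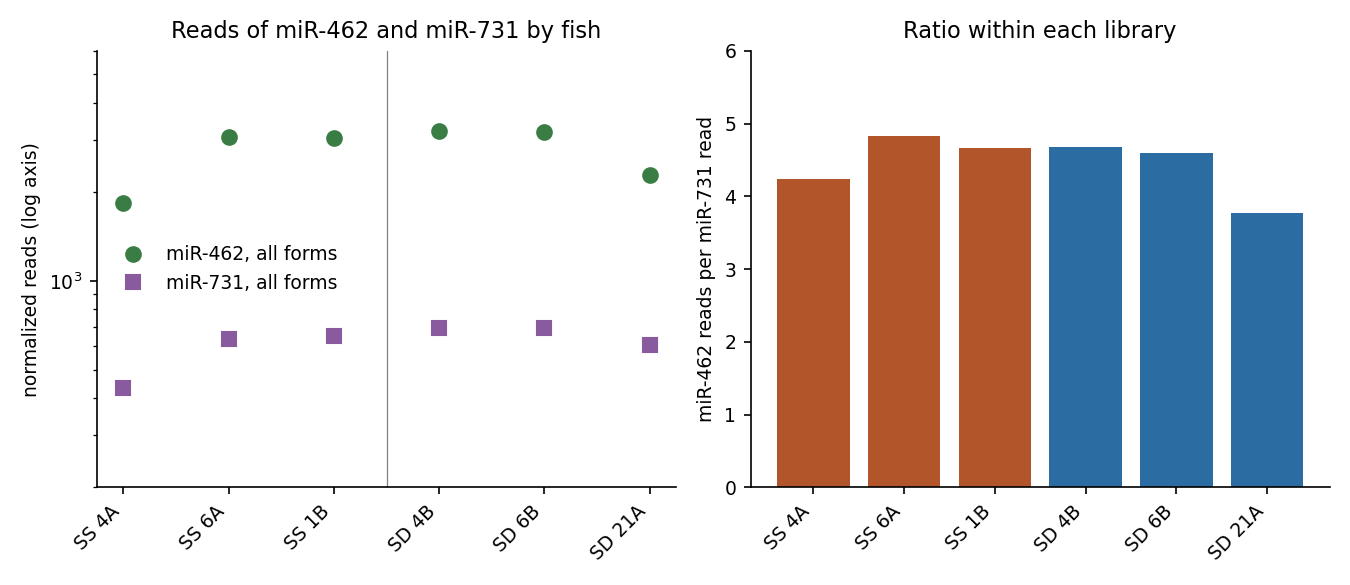
Normalized reads of all forms of miR-462 and of miR-731 in each fish (left, log axis), and reads of miR-462 per read of miR-731 in each library (right), with SS fish left of SD fish. Both miRNAs are lowest in SS fish 4A, and the ratio stays between 3.77 and 4.83.

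The main form of the cluster, ssa-miR-462a-5p, stood at 1635, 2747 and 2783 normalized reads in SS fish 4A, 6A and 1B, against 2926, 2801 and 2010 in SD fish 4B, 6B and 21A. Its log2 fold change was -0.14 (standard error 0.27, adjusted p = 0.856 in edgeR), and the direction turned to 0.11 without SS fish 4A. ssa-miR-462b-5p_R-1 stood at 183.4, 314.8 and 243.9 normalized reads in the SS fish in the same order, against 282.7, 360.0 and 257.4 in the SD fish. The order of its fish was not that of miR-462a, since its SS fish 1B was lower than all SD fish, and its log2 fold change was -0.31 (standard error 0.28, adjusted p = 0.679 in edgeR), or -0.097 without SS fish 4A. Because the 2 forms differ by 1 base and reads can be shared between them, their split is uncertain. Per read of miR-462b-5p there were 8.92, 8.73 and 11.4 reads of miR-462a-5p in SS fish 4A, 6A and 1B, against 10.3, 7.78 and 7.81 in SD fish 4B, 6B and 21A.

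ssa-miR-731-5p stood at 379.7, 560.4 and 551.5 normalized reads in SS fish 4A, 6A and 1B, against 620.1, 634.5 and 521.6 in SD fish 4B, 6B and 21A. Again SS fish 4A was lowest and SD fish 21A next, and the log2 fold change was -0.28 (standard error 0.24, adjusted p = 0.665 in edgeR), or -0.081 without SS fish 4A. Its 3p arm had the opposite sign: ssa-miR-731-3p stood at 48.7, 67.7 and 92.2 normalized reads in the SS fish, against 58.5, 41.6 and 69.9 in the SD fish, and its log2 fold change was 0.27 (standard error 0.36, adjusted p = 0.763 in edgeR). The groups overlapped for both arms, and without SS fish 1B the value of the 3p arm was -0.02.

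Within a library, miR-462 had 4.23, 4.83 and 4.67 reads per read of miR-731 in SS fish 4A, 6A and 1B, against 4.67, 4.60 and 3.77 in SD fish 4B, 6B and 21A. The mean log2 ratio was 2.19 ± 0.0987 in the SS and 2.11 ± 0.171 in the SD group (SD, n = 3 each), a difference of 0.08 (two-sided exact permutation p = 0.6). Over the 6 libraries ssa-miR-731-5p was the nearest of 337 tested sequences to ssa-miR-462a-5p, with a root mean square difference of 0.13 log2 CPM, and dre-let-7i (0.14) and ssa-miR-462b-5p_R-1 (0.20) came next, against a median of 0.53. For the summed cluster the nearest were its own forms ssa-miR-462a-5p (0.07) and ssa-miR-731-5p (0.13), then dre-let-7i (0.17). ssa-miR-731-3p was far from it, at rank 98.

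The rare forms of the cluster did not all follow the main ones. ssa-miR-462a-3p had 9, 1 and 10 reads in SS fish 4A, 6A and 1B, against 9, 15 and 19 in SD fish 4B, 6B and 21A. As the arm miR-462-3p, with 1 read of the miR-462b form added, it stood at 7.30, 1.44 and 10.5 normalized reads in the SS fish, against 11.4, 18.3 and 10.7 in the SD fish. Every SS fish was lower than every SD fish by this arm sum, and its log2 fold change was -0.97 (95% interval -2.47 to 0.54, adjusted p = 0.586 in edgeR). The longer miR-731-5p form, dre-miR-731_R+2_1ss23CT, had 1, 1 and 4 reads in the SS fish, against 6.5, 9 and 9 in the SD fish. Per read of ssa-miR-731-5p it was also rarer in every SS fish, with log2 ratios (1 read added to each) of -7.87, -7.61 and -6.86 in SS fish 4A, 6A and 1B, against -6.03, -5.70 and -6.53 in SD fish 4B, 6B and 21A, a difference of -1.36 in means that shrank to -0.23 with 10 reads added. The form fell under the filter and was singled out after its values were seen. With no filter its own log2 fold change was -1.81 and did not pass the threshold (adjusted p = 0.428 in edgeR).

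**Figure D4:**
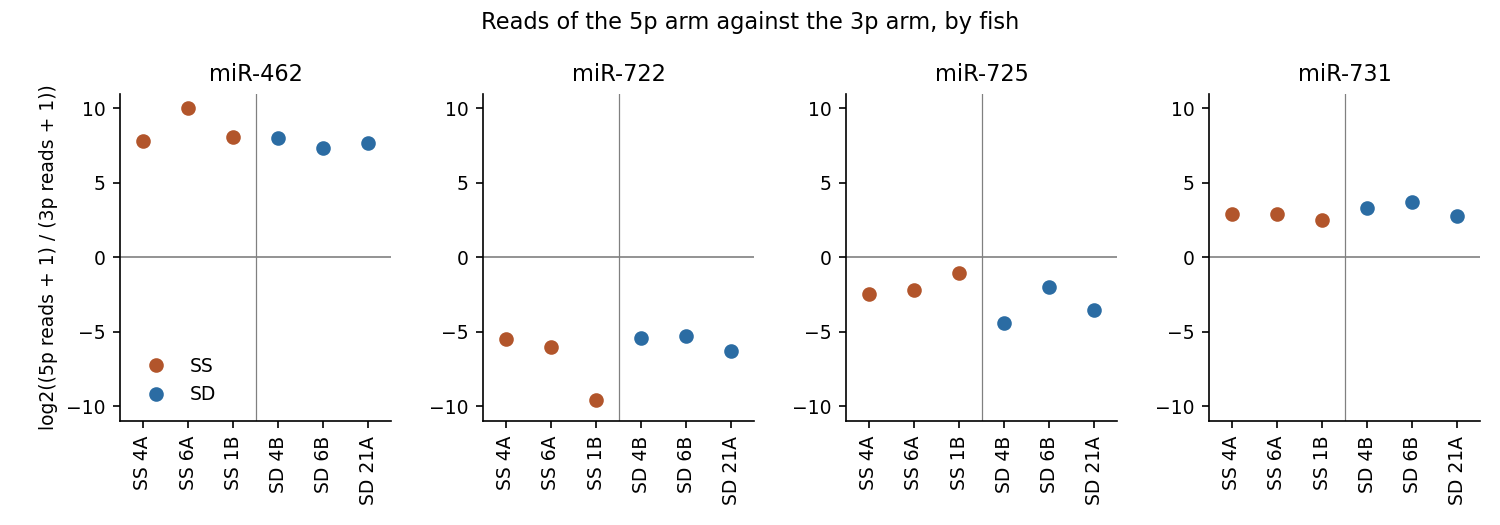
Log2 ratio of 5p to 3p reads, with 1 read added to each, by fish for miR-462, miR-722, miR-725 and miR-731, SS fish left of SD fish. miR-462 and miR-731 lie above 0 and miR-722 and miR-725 below 0 in every fish, and the miR-722 ratio of SS fish 1B is far below the rest.

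The 5p arm was the main arm of miR-462 and miR-731 and the 3p arm that of miR-722 and miR-725 in all 6 fish. There were 173 to 2127 reads of miR-462-5p per read of its 3p arm. For miR-731 the 5p reads per 3p read were 7.46, 7.72 and 5.75 in SS fish 4A, 6A and 1B, against 10.3, 13.7 and 6.86 in SD fish 4B, 6B and 21A. For miR-725 they were 0.169, 0.176 and 0.466 in SS fish 4A, 6A and 1B, against 0, 0.182 and 0.0588 in SD fish 4B, 6B and 21A. The log2 ratios differed between SS and SD fish by 0.98 for miR-462, -1.38 for miR-722, 1.40 for miR-725 and -0.51 for miR-731. These differences moved with single libraries and with the reads added. The value was -0.12 for miR-722 without SS fish 1B and 0.27 for miR-462 without SS fish 6A, which had 1 read of the 3p arm. With 10 reads added it was 0.29 for miR-462 and 0.12 for miR-725. By two-sided exact permutation tests the p were 0.2, 0.5, 0.3 and 0.3, and with the ratio of miR-462 to miR-731 as the fifth comparison all 5 adjusted p were 0.5 or 0.6.

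Of the neighbouring numbers, miR-724 and miR-737 each had 1 tested form. dre-miR-724_L-1 stood at 35.7, 17.3 and 28.5 normalized reads in SS fish 4A, 6A and 1B, against 25.4, 37.9 and 33.3 in SD fish 4B, 6B and 21A. dre-miR-737-5p_2ss4TA15TA stood at 6.49, 18.7 and 9.51 normalized reads in the SS fish, against 15.2, 12.2 and 10.2 in the SD fish. The groups overlapped in both, with log2 fold changes of -0.25 (adjusted p = 0.814) and -0.17 (adjusted p = 0.898) in edgeR. The first was -0.020 without SS fish 6A, and the second 0.16 without SS fish 4A.

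The 40 sequences below the filter had between 0.5 and 63 reads over the 6 libraries, where a fraction arises because a read is shared between names. Of these, 9 had 10 reads or more. ssa-miR-734-3p_R-1 had 6, 4 and 7 reads in SS fish 4A, 6A and 1B, against 1, 15 and 25 in SD fish 4B, 6B and 21A, so the lowest and the highest values were both in SD fish. dre-mir-726-p5_1ss4AG, from the 5p side of the zebrafish miR-726 hairpin, stood at 7.71, 11.5 and 7.61 normalized reads in the SS fish, against 3.81, 7.34 and 2.82 in the SD fish, with the lowest SS fish barely above the highest SD fish. ssa-miR-730a-5p with 23.5 reads, dre-miR-462_R+3 with 30, dre-mir-731-p3_2ss10CT22CA with 30 and dre-mir-733-p5 with 12.3 overlapped between the groups. The other 31 had at most 8 reads, and miR-723, miR-727, miR-728, miR-729, miR-735 and miR-736 were present through such forms alone. Of the 49 sequences, 16 had reads in a single library and 17 in all.

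**Figure D5:**
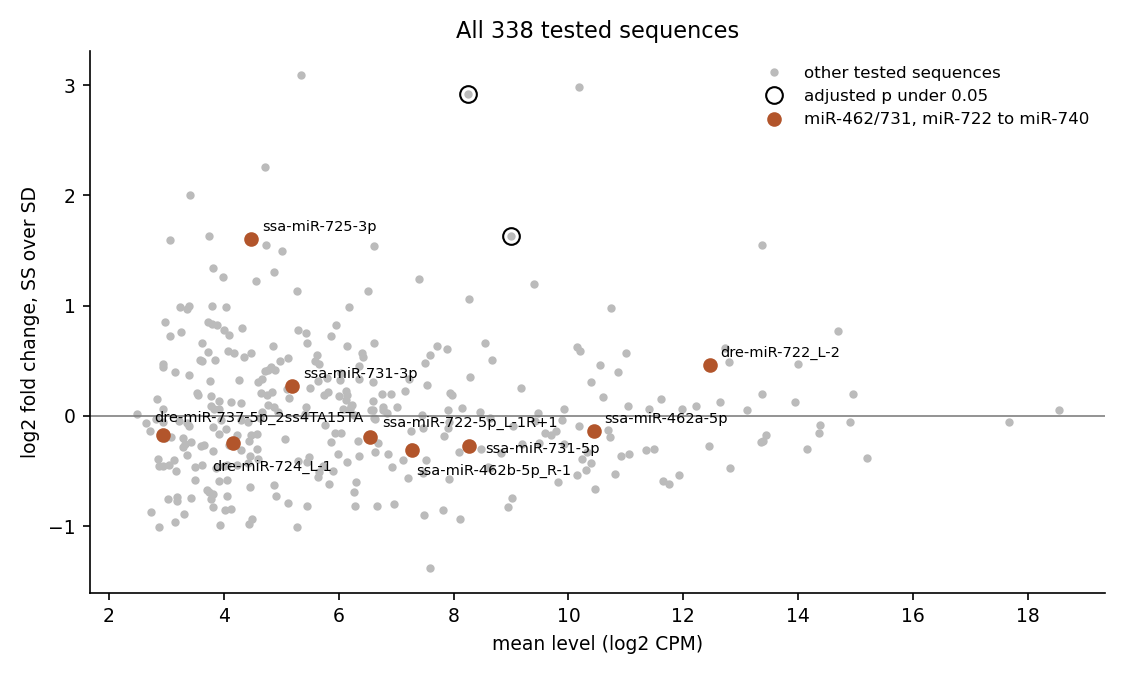
Log2 fold change of SS over SD fish (y axis) against mean level in log2 CPM (x axis) for the 338 tested sequences, with the 9 of the set in colour and the 2 past the adjusted threshold ringed. ssa-miR-725-3p lies high at a low level, dre-miR-722_L-2 above 0 at a high level, and the other 7 lie near 0.

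miRNAs that share the known settings of the cluster were set beside it by number. For those of the immune response (miR-21, miR-146 and miR-155), 11 of 38 sequences were tested. The 38 are mostly forms of miR-21 (15) and miR-146 (20), so the tested sequences are not separate miRNAs. Their median log2 fold change was 0.77 against -0.02 over all 338. By the adjusted test in edgeR 1 of the 11 rose in SS fish and none fell, against 2 called of all 338, or 0.592%. The 1 that rose was pol-miR-21-3p_R-1_1ss14AT, from an arm of the miR-21 hairpin, with a log2 fold change of 2.92 (adjusted p = 0.0213 in edgeR). Without SS fish 1B, SD fish 4B or SD fish 21A edgeR called 0 of all sequences, this one included. All forms of these 3 numbers together lay between 82079 and 106201 normalized reads in SS fish and between 33985 and 68302 in SD fish, without overlap, while the cluster of miR-462 and miR-731 overlapped between the groups. Nearly all of this sum was miR-21 and miR-146, and each of them was higher in every SS fish. miR-155 overlapped between the groups. It had 11.4, 40.3 and 119.8 normalized reads in SS fish 4A, 6A and 1B. SD fish 4B, 6B and 21A had 34.3, 33.0 and 11.8. Of all 338 tested sequences, 10.7% were higher in every SS fish. miR-21 was among the miRNAs the study chose on these libraries. By RT-PCR, which was not analysed here, the study reported more miR-21 in SS than in SD fish. That assay measured the other arm of the hairpin, not the arm of the called form. The study also cites roles of miR-21-3p in rodent liver metabolism under nutritional stress. Whether an immune response took part was not tested. For hypoxia, both tested forms of miR-210 had values above 0, 0.19 for the 5p and 0.64 for the 3p form, and neither passed the threshold in edgeR.

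The liver label was matched by the level of miR-122, a hepatocyte miRNA. The hepatocyte list (miR-122, miR-192 and miR-194) summed to between 606401 and 849840 normalized reads in SS fish and between 619088 and 741595 in SD fish. Nearly all of this was miR-122, whose forms together lay between 576193 and 813536 normalized reads in the 6 fish. Over the 6 libraries together, no number in this list or in the lists of other cell types was at 0, so presence alone does not mark liver. In single fish, miR-206 (muscle) was at 0 in SS fish 6A, SS fish 1B and SD fish 6B, and miR-141 (epithelium) in SS fish 6A. Markers of erythrocytes (miR-144 and miR-451) summed to between 1822 and 7856 in SS and between 4950 and 6719 in SD fish, of endothelium (miR-126) to between 15357 and 26223 in SS and between 15920 and 19380 in SD fish, and of the pancreas (miR-216, miR-217 and miR-375) to between 153 and 607 in SS and between 193 and 226 in SD fish. SS fish 4A, in which the cluster was lowest, had the highest sums of erythrocyte and pancreas markers and the lowest of the endothelial marker among the 6 fish. That endothelial value, 15357, was close to the 15920 of SD fish 4B. Of the erythrocyte markers, miR-144 was highest in SS fish 4A, but miR-451 was higher in SD fish 4B (4978 against 4796). The stromal sum (miR-143, miR-145, miR-199 and miR-214), 75368, and the epithelial sum (miR-141, miR-200, miR-203, miR-205 and miR-429), 1842, were also lowest in SS fish 4A. There miR-145, miR-199 and miR-214 were each lowest, but miR-143 was lower in SD fish 4B (15335 against 15510). Most of the epithelial sum was miR-200, which was lowest in SS fish 4A, while miR-141, miR-203, miR-205 and miR-429 were not. The hepatocyte, leukocyte, muscle and neuron sums of this fish were neither highest nor lowest. None of the sequences tested in the hepatocyte, erythrocyte, endothelial and pancreas lists passed the threshold in edgeR. At an unadjusted p under 0.05 there were 3 of 12 hepatocyte sequences and none of the others, against 37 of all 338, or 10.9%. The part of these cells in the levels above was not tested.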

How the data were processed

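Members and lists were chosen with earlier results of these data known. Small RNA of 15 to 32 nt was read from 6 livers, 1 library per fish. The authors cut adapters, removed low-quality reads and reads of other RNAs, and searched fish miRNAs of miRBase with Bowtie, version 1.1.1 by the submitters' notes. The deposited table gives expected counts, in which reads of several names are shared, and normalized reads, a signal the authors made by dividing by a size parameter. No genome was used here, so no positions are printed. Read counts per filtering step were deposited by the authors too.

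Counts were rounded and tested by edgeR 4.0.16 (filterByExpr with minimum count 10, TMM, quasi-likelihood test, Benjamini-Hochberg, threshold 0.05) in R 4.3.3, for sequences, arm sums and the cluster. Arms came from names for 36 members, a shared 12-base stretch for 7 and exclusion for 4, with none for 2. Ratios per fish had 1 added and a two-sided exact permutation test. Every tested member was named, and untested ones with 10 reads or more. DESeq2 1.42.0, limma 3.58.1 with 1 or 10 added, other size factors and filters, fractional counts, a block and leaving out each library were alternatives. With no change simulated, 4.15% of sequences had a p under 0.05. RNAduplex 2.7.2 and Python 3.11.15 were used. RT-PCR was not analysed here.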

Additional observations from a re-analysis of the deposited data

How the results depend on the processing

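No sequence of the set passed the adjusted threshold under another setting except with no filter, where 1 did, ssa-miR-725-5p. The number of all sequences called was 7 with DESeq2, 18 with no filter and 0 with the replicate block, against 2, and 0 to 6 without single libraries. The number of arms called was 4, 14 and 0 under the same settings, against 2, and 0 to 5 without single libraries. The replicate block groups fish by label number, so its difference between groups rests on fish 4A, 4B, 6A and 6B alone. miR-722-3p stayed between 0.36 and 0.50 on the log2 scale and miR-725-3p between 1.07 and 1.93 in these alternatives, above 0 in each, with adjusted p of 0.315 to 0.731 and 0.0634 to 0.662 in edgeR, DESeq2 or limma. With a minimum count of 50 miR-725-3p was not tested. With all forms of miR-725 summed, a fit added after the data were seen, the adjusted p ranged from 0.0359 to 0.624.

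Without single libraries, some log2 fold changes near 0 turned sign, none passed the threshold, and the cause was not tested. The cluster ranged from -0.36 to 0.0037, highest without SS fish 4A, and the difference in the log2 ratio of miR-462 to miR-731 from -0.020 (without SD fish 21A) to 0.13. Single sequences ranged from -0.30 to 0.11 for ssa-miR-462a-5p, from -0.017 to 0.49 for ssa-miR-731-3p, from -0.90 to 0.36 for ssa-miR-722-5p_L-1R+1 and from -0.63 to 0.16 for dre-miR-737-5p_2ss4TA15TA. Arm sums ranged from -0.34 to 0.071 for miR-462-5p, from -0.10 to 0.45 for miR-731-3p, from -0.93 to 0.33 for miR-722-5p, from -0.54 to 0.21 for miR-737-5p and from -0.47 to 0.011 for miR-724-5p. Sums over all forms ranged from -0.27 to 0.14 for miR-462, from -0.33 to 0.016 for miR-731, from -0.25 to 0.37 for miR-737 and from -0.41 to 0.072 for miR-724. With no filter all forms of miR-737 gave -0.021, against 0.13.

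SS and SD fish share only the label numbers 4 and 6. Same-numbered fish deviated together with r = 0.13 (4A and 4B) and r = 0.44 (6A and 6B), other pairs with r of -0.37 to 0.30. Each fish numbered 4 or 6 had its highest r with the fish of the same number. Fish 1B and 21A, whose numbers differ, had r = 0.30, above that of 4A and 4B. Deviations were taken from the mean of each group, so these r are not independent of each other. These r run across sequences, which are not replicates, so they cannot decide whether the numbers mark pairs. The numbers were not taken as pairs, and the main tests treat the 6 fish as independent. No source used here says what a number marks, and since the fish were held in pairs, it may mark a pair. The replicate block takes its difference between groups from fish 4A, 4B, 6A and 6B alone. By this block the log2 fold change was 0.037 for ssa-miR-722-5p_L-1R+1, 0.051 for miR-722-5p and -0.52 for the cluster. It was 0.49 for miR-722-3p and 1.07 for miR-725-3p.

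With 3 fish a group, a 2-fold change was called in 14.1% of the simulated cases that passed the filter, so a missed threshold does not show that levels were alike. Members under 10 reads carry no usable comparison.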
